A study of Mus musculus with 15 samples.

Results

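The genes described here are 10 genes of the smooth muscle contractile machinery, read on heart arrays of methamphetamine-treated mice: Acta2, Actg2, Myh11, Myl9, Mylk, Cnn1, Tagln, Smtn, Lmod1 and Myocd. They were taken as the non-control probes whose accession belongs to 1 of these symbols, with no measured value used in the choice. All 10 of 10 were on the array, out of 18350 genes, by 15 of 41174 probes: 3 for Acta2, 2 each for Tagln, Myocd and Mylk, and 1 for each of the other 6 genes.

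Male and female C57BL/6 mice, 8 to 10 weeks old at the first injection, received methamphetamine hydrochloride (meth) intraperitoneally once a week for 5 months, at a dose raised weekly to a final 40 mg/kg, or PBS on the same schedule. Heart tissue RNA of 1 mouse was hybridised to each of 15 Agilent 1-colour arrays: 4 male meth, 4 male PBS, 4 female meth and 3 female PBS. Males came from 2 separate trials, with 2 meth and 2 PBS arrays in each, and females from 1. Hearts were those of mice alive at the end of the treatment, and the samples are whole heart tissue, so that a lower signal from fewer smooth muscle cells and one from less RNA per cell cannot be told apart.

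In a heart, smooth muscle lines the coronary vessels and the roots of the great vessels. Its contraction starts when calcium and calmodulin switch on myosin light chain kinase, which phosphorylates the regulatory light chain of smooth muscle myosin and lets the motor pull on actin filaments. Most genes of this machinery are driven by serum response factor, which binds CArG boxes in their promoters, together with its partner myocardin, and vascular smooth muscle cells that leave the contractile state lose many of these transcripts.

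Values are log2 signals after each array was shifted by its own 75th percentile, so that 0 is the signal of the probe at that percentile, and they are compared only within a probe. All 15 probes were well above background on all 15 arrays, and 61.4% to 71.4% of all probes were so on each array. The arrays lay on 4 slides: slides 1 and 2 held the trial 1 males and 4 females, slide 3 the trial 2 males, and slide 4 the other 3 females, whose titles place them in trial 1 and whose source names place them in trial 2. Each slide held meth and PBS arrays. One feature of these hearts touches every male comparison: 11 of 11 measured secretory airway genes were higher in male meth hearts. The list holds genes that the paper reported as raised by meth in this series, so that this count was no independent test. All 11 were well above background on every male meth array, and 7 of them on no male PBS array. Their summed linear signal was 40.8 to 216 on the male meth arrays, 0.534 to 0.624 on male PBS, 1.34 to 4.49 on female meth and 1.68 to 3.33 on female PBS. The part of these airway genes in the values of the smooth muscle genes was not tested. Of the tracheal cartilage genes, 0 of 7 passed in males, against 1.10% of all probes. Their summed signal was 6.33 to 24.0 on male meth, 3.79 to 4.44 on male PBS, 5.14 to 8.54 on female meth and 5.19 to 5.99 on female PBS arrays. The 24.0 was male meth trial 2 replicate 1 alone, and the other male meth arrays read 6.33 to 7.89. By mean log2 signal, male meth arrays read -1.99 to -1.68 and male PBS arrays -2.22 to -2.06. The cartilage list shares Comp with the myofibroblast list given below. Of the epithelial genes, 3 of 8 were higher in male meth hearts. The part of these 2 groups was not tested either.

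RefSeq promoters on build GRCm38.p6 were given for 6 of the 10 genes, and the promoters of Myl9, Acta2, Lmod1, Cnn1 and Mylk are shown because probes of these genes turned in the same way between the male trials. Each line holds the 250 bases before the start of the gene on its own strand, and capitals mark CArG boxes with at most 1 mismatch. The intervals are chr2:156775214-156775463 on the plus strand for Myl9, chr19:34255374-34255623 on the minus strand for Acta2, chr1:135324563-135324812 on the plus strand for Lmod1, chr9:22099003-22099252 on the plus strand for Cnn1 and chr16:34784700-34784949 on the plus strand for Mylk.
Myl9: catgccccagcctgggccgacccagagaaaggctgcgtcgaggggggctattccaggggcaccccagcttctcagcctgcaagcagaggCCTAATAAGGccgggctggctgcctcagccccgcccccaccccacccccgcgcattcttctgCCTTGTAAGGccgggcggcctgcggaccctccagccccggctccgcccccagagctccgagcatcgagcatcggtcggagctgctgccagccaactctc
Acta2: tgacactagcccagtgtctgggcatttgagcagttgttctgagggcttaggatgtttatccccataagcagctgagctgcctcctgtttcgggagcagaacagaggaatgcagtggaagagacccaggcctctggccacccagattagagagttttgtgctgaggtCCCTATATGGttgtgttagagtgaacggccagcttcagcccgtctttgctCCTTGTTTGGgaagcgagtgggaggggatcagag
Lmod1: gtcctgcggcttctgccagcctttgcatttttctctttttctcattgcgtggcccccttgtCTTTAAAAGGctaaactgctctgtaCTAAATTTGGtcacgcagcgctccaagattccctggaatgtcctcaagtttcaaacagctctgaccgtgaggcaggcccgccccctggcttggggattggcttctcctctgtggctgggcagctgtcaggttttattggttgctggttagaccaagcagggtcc
Cnn1: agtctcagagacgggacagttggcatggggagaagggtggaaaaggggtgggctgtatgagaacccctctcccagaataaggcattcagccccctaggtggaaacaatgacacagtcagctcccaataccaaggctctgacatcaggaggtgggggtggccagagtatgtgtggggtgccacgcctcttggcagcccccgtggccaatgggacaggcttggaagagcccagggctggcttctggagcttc
Mylk: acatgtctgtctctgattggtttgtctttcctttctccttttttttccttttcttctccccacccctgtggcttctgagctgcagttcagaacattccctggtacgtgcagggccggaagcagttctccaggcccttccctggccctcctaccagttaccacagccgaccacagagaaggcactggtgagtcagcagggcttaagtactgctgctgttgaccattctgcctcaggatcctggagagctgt

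The CArG box is its own reverse complement as a pattern, so that a search of 1 strand covers both. The search covered 300 bases of each promoter, the 250 before the start and the bases that follow. An exact box stood 161 bases before the start of Myl9, and a second match in that promoter, at 99 bases, carried 1 mismatch. Acta2 had matches with 1 mismatch at 84 and 34 bases, and Lmod1 at 189 and 164 bases. No match lay in the 300 bases searched for Cnn1, Smtn or Mylk. An exact box was thus found in 1 of 6 promoters of the smooth muscle genes and a box with at most 1 mismatch in 3 of 6, against 1.63% and 21.1% of all 32851 promoters in the table. Promoters of Myh11, Tagln, Actg2 and Myocd were not analysed here. A match of letters is a description of the sequence and does not show binding.

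The actins came first. For Acta2, the smooth muscle alpha-actin, the brightest probe read 6.06, 6.08, 6.41 and 6.42 on the male PBS arrays and 5.96, 5.98, 6.43 and 6.25 on the male meth arrays, in each case with the trial 1 arrays first. Female PBS arrays read 6.06, 5.89 and 6.20 and female meth arrays 5.63, 6.03, 6.30 and 6.27. Meth and PBS arrays overlapped in both sexes, but the arrays differed by slide: the 8 arrays of slides 1 and 2 read 5.63 to 6.08 and the 7 arrays of slides 3 and 4 read 6.20 to 6.43, with no overlap. Of all probes, 3.46% separated these slides without overlap, and 1 of the 15 smooth muscle probes did. Actg2, the gamma-actin of smooth muscle, averaged 6.96 ± 0.18 (SD, n = 4) in male PBS, 6.84 ± 0.13 (n = 4) in male meth, 6.75 ± 0.19 (n = 3) in female PBS and 6.63 ± 0.26 (n = 4) in female meth hearts, and the 4 groups overlapped.

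Among the motor proteins, Myh11, the smooth muscle myosin heavy chain, averaged 0.44 ± 0.24 in male PBS, 0.52 ± 0.11 in male meth, 0.11 ± 0.24 in female PBS and 0.18 ± 0.07 in female meth hearts. Myl9, the regulatory light chain that the kinase phosphorylates, had the widest span of the 10 genes' brightest probes, 1.13 on the log2 scale over the 15 arrays. It read 5.14, 4.72, 5.09 and 5.08 in male PBS, 5.29, 5.39, 4.97 and 4.48 in male meth, 4.52, 4.48 and 4.26 in female PBS and 5.09, 4.81, 4.79 and 4.73 in female meth hearts. Every female PBS array lay below every female meth array and every male PBS array, whereas male meth arrays spanned the male PBS range. Mylk, the light chain kinase itself, read 0.62, 0.75, 0.97 and 1.00 in male PBS, 0.86, 0.84, 0.69 and 0.76 in male meth, 0.71, 0.86 and 0.88 in female PBS and 0.72, 0.74, 0.86 and 0.85 in female meth hearts, with overlap between all groups.

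The actin-binding regulators followed. Cnn1, calponin, which restrains the myosin motor on actin, read 1.92, 1.85, 1.99 and 2.25 in male PBS, 2.19, 2.32, 1.77 and 1.76 in male meth, 1.41, 1.73 and 1.72 in female PBS and 1.91, 1.93, 1.84 and 1.70 in female meth hearts. The 3 female PBS arrays were below all 4 male PBS arrays. Tagln, transgelin, a calponin relative that binds actin filaments, read 4.25, 4.22, 3.95 and 4.31 in male PBS, 4.45, 4.38, 3.97 and 3.94 in male meth, 3.81, 4.14 and 4.06 in female PBS and 4.41, 4.16, 4.03 and 4.12 in female meth hearts. Lmod1, leiomodin, which nucleates actin filaments, read 0.12, 0.07, 0.14 and 0.32 in male PBS, 0.41, 0.33, -0.04 and -0.01 in male meth, -0.35, 0.06 and 0.01 in female PBS and 0.17, -0.06, -0.17 and -0.02 in female meth hearts. For Tagln and Lmod1 the 2 trial 1 male meth arrays were the highest male arrays, and for Cnn1 and Lmod1 the 2 trial 2 male meth arrays were the lowest. Smtn, smoothelin, a cytoskeletal protein of contractile smooth muscle, had a range of 0.41 over the 15 arrays and group means of 1.99 to 2.13.

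Myocd, the coactivator of serum response factor, is also made by heart muscle cells. Its brighter probe read 1.73, 1.85, 2.10 and 2.07 in male PBS, 1.70, 1.57, 1.98 and 1.92 in male meth, 1.90, 1.71 and 1.86 in female PBS and 1.63, 1.87, 1.67 and 1.69 in female meth hearts. Within each trial both male meth arrays were below both male PBS arrays, while over all males, and in females, the groups overlapped.

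**Figure D1:**
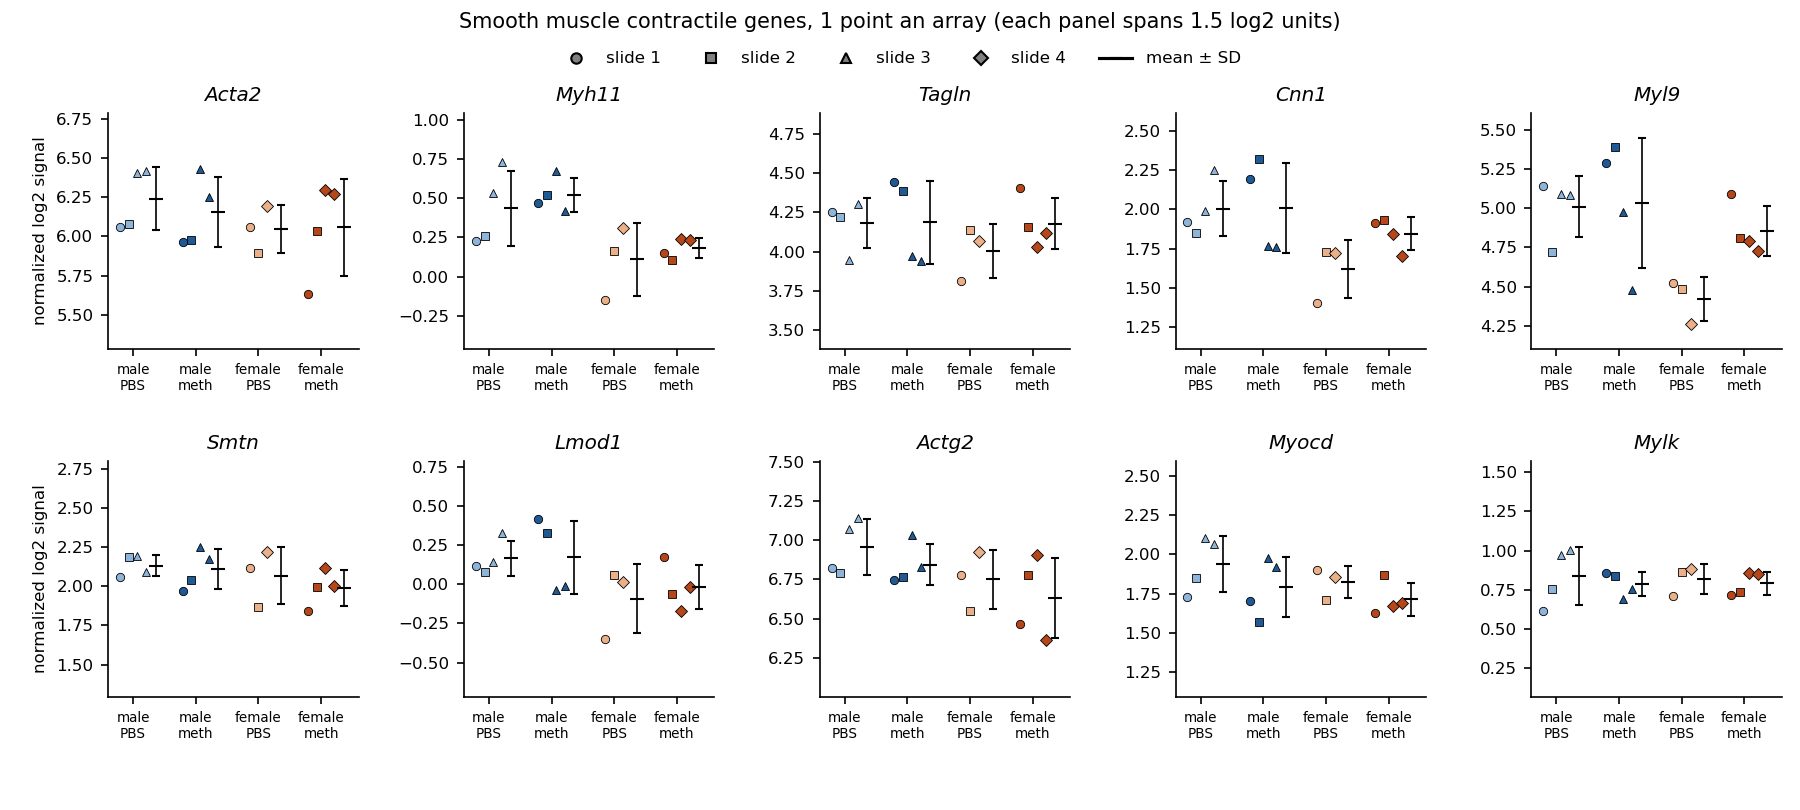
Normalized log2 signal of the brightest probe of each gene, 1 point an array, by group on the x axis, with the symbol giving the slide and the bar the group mean ± SD. Every panel spans the same height. Female PBS arrays of Myl9 sit at 4.26 to 4.52, below the female meth arrays at 4.73 to 5.09, and for Acta2 the arrays of slides 3 and 4 lie above those of slides 1 and 2.

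The first comparison asked whether meth changed these genes in male hearts. None of the 10 genes passed an adjusted p of 0.05 in limma, by 0 of 15 probes against 1.10% of all probes. None had an unadjusted p under 0.05 either, against 12.8% of all probes, and the methods' t-test, paired or unpaired, called none after adjustment and none before it. No smooth muscle probe separated the 4 meth from the 4 PBS arrays, where 9.78% of all probes did. Differences of meth minus PBS ran from -0.14 for Myocd to 0.085 for Myh11 on the log2 scale, 5 above and 5 below 0, with a median of -0.0091 beside -0.017 over all genes tested. The lowest adjusted p was 0.439, for Myocd (SE 0.073). The 95% intervals of the 10 genes reached from -0.37, for Actg2, to 0.39, for Myl9, so that a fold of 0.772 to 1.31 spans all of them. The standard errors were those of other genes, with a median of 0.12 for the smooth muscle genes and 0.12 over all genes.

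In female hearts the largest difference was that of Myl9. Its mean was 4.42 ± 0.14 (SD, n = 3) with PBS and 4.86 ± 0.16 (n = 4) with meth, a log2 difference of 0.43 (SE 0.18, 95% interval 0.04 to 0.83), or 1.35-fold. The adjusted p in limma was 0.385, so that the difference did not pass. Meth was above PBS within each of the 3 slides that hold both, by 0.57, 0.33 and 0.50. The arrays did not overlap, which held for 1 of the 15 smooth muscle probes and 9.11% of all probes, and the exact permutation test, two-sided, gave its smallest possible p of 0.0286, unadjusted and 1 of 15 such tests in females. With normexp background correction the difference was 0.23.

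The other 9 genes gave female differences from -0.12 for Actg2 to 0.23 for Cnn1, and the median over the 10 was 0.040 beside 0.026 over all genes. Cnn1 and Tagln were above PBS on each of the 3 slides, Cnn1 by 0.046 to 0.51 and Tagln by 0.0075 to 0.60, with adjusted p-values of 0.650 and 0.691. The largest value of each was that of slide 1, from 1 meth and 1 PBS array. That PBS array, female PBS replicate 1, read lowest of all 15 arrays for both genes. On slide 2 the differences were 0.20 and 0.022. In all, 0 of 15 probes passed in females against 0.769% of all probes, and 1 of 15 had an unadjusted p under 0.05, in limma and in the methods' t-test, against 11.0% of all probes in limma. Markers of other tissues were read in the same hearts. The 7 of 7 atrial genes were above 0 in the female difference (median 0.39), with a summed linear signal of 709 to 946 on meth and 552 to 711 on PBS arrays, and 5 of 5 white fat genes were above 0 (median 1.37), with 64.0 to 97.2 on meth and 26.6 to 33.8 on PBS arrays. None of these 12 genes passed in females, and the part of atrial or fat tissue in the Myl9 values was not tested.

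Taking both sexes together, 0 of 15 probes passed against 2.67% of all probes, and 1 of 15 had an unadjusted p under 0.05 against 15.3%. That probe was the brighter one of Myocd, lower with meth by a log2 difference of -0.13 (SE 0.05, 95% interval -0.24 to -0.01, adjusted p = 0.277). It was below PBS on 3 of 3 male slides and on 2 of 3 female slides. The second Myocd probe gave -0.059 (SE 0.066). By the interaction term, the difference between the sexes in the meth response passed for 0 of 15 probes against 0.138% of all probes, 0 of 15 had an unadjusted p under 0.05 against 8.59%, and the largest difference, male minus female, was -0.41 for Myl9 (SE 0.25, 95% interval -0.94 to 0.13, adjusted p = 0.681).

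Control hearts of the 2 sexes were compared next. Myl9 stood 0.70 higher in male than in female PBS hearts (SE 0.20, 95% interval 0.27 to 1.13, 1.63-fold, adjusted p = 0.147), in the fit with a term for the trial. Cnn1 was higher by 0.45 (SE 0.16, adjusted p = 0.231), Tagln by 0.32 (SE 0.14, adjusted p = 0.293) and Lmod1 by 0.32 (SE 0.15, adjusted p = 0.329). The trial effect was estimated from male PBS and male meth arrays together, since the females were taken as trial 1. That term is the same for meth and PBS, whereas the male meth minus PBS differences of these genes changed sign between the trials. The fitted sizes therefore depend on it. Over 32 alternatives the difference ran from 0.43 to 0.94 for Myl9, 0.27 to 0.58 for Cnn1, 0.18 to 0.44 for Tagln and 0.19 to 0.44 for Lmod1. Plain means of male and female PBS hearts lay closer together than the fit gave. They were 5.01 and 4.42 for Myl9, 2.00 and 1.62 for Cnn1, 4.18 and 4.00 for Tagln and 0.16 and -0.091 for Lmod1. None of the fitted differences passed: 0 of 15 probes did, against 0.473% of all probes. At an unadjusted p under 0.05 there were 3 of 15, those of Myl9, Cnn1 and the brighter Tagln probe, against 15.2% of all probes, and the male and female PBS arrays did not overlap for 3 of 15, those of Cnn1, Myl9 and Lmod1, against 14.7%. By exact permutation tests, two-sided and unadjusted over the 15 probes, p was 0.0286 for Cnn1, 0.0286 for Lmod1 and 0.0571 for Myl9. Unlike the fit, which held a term for the trial, these tests pooled the male PBS arrays of both trials. Neither the fit nor these tests took account of slide.

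Of the 10 genes, 8 were above 0 in this sex comparison, and the median of the 10 was 0.15 beside 0.012 over all genes. Within slide 1, male minus female PBS was 0.62 for Myl9, 0.52 for Cnn1, 0.44 for Tagln and 0.46 for Lmod1. Within slide 2 the same differences were 0.23, 0.12, 0.086 and 0.014. All 8 had the same sign, and on slide 2 they were smaller in each gene. Each was 1 male array minus 1 female array. The female array of slide 1, female PBS replicate 1, read lowest of all 15 arrays for Cnn1 (1.41), Tagln (3.81) and Lmod1 (-0.35), though not for Myl9. Slides 3 and 4 each held 1 sex. The 7 of 7 atrial genes were above 0 as well (median 0.42), with a summed signal of 778 to 1078 on male PBS and 552 to 711 on female PBS arrays. Heart muscle genes were above 0 for 8 of 10 (median 0.18), red blood cell genes for 4 of 4 (0.37), white fat genes for 4 of 5 (0.87) and brown fat genes for 3 of 5 (0.77). Below 0 were 8 of 9 myofibroblast (-0.53), 9 of 10 endothelial (-0.18) and 9 of 9 elastic artery wall genes (-0.26). None of the genes in these 8 groups passed. Secretory airway genes were below 0 for 10 of 11 (-0.57), with 1 called lower in males. Tracheal cartilage genes were below 0 for 6 of 7 (-0.21), with 1 called higher in males. Genes known to rise in smooth muscle that leaves the contractile state were below 0 for 8 of 10 (-0.36), with 0 called. Of all probes, 0.473% were called. The part of any of these groups was not tested.

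**Figure D2:**
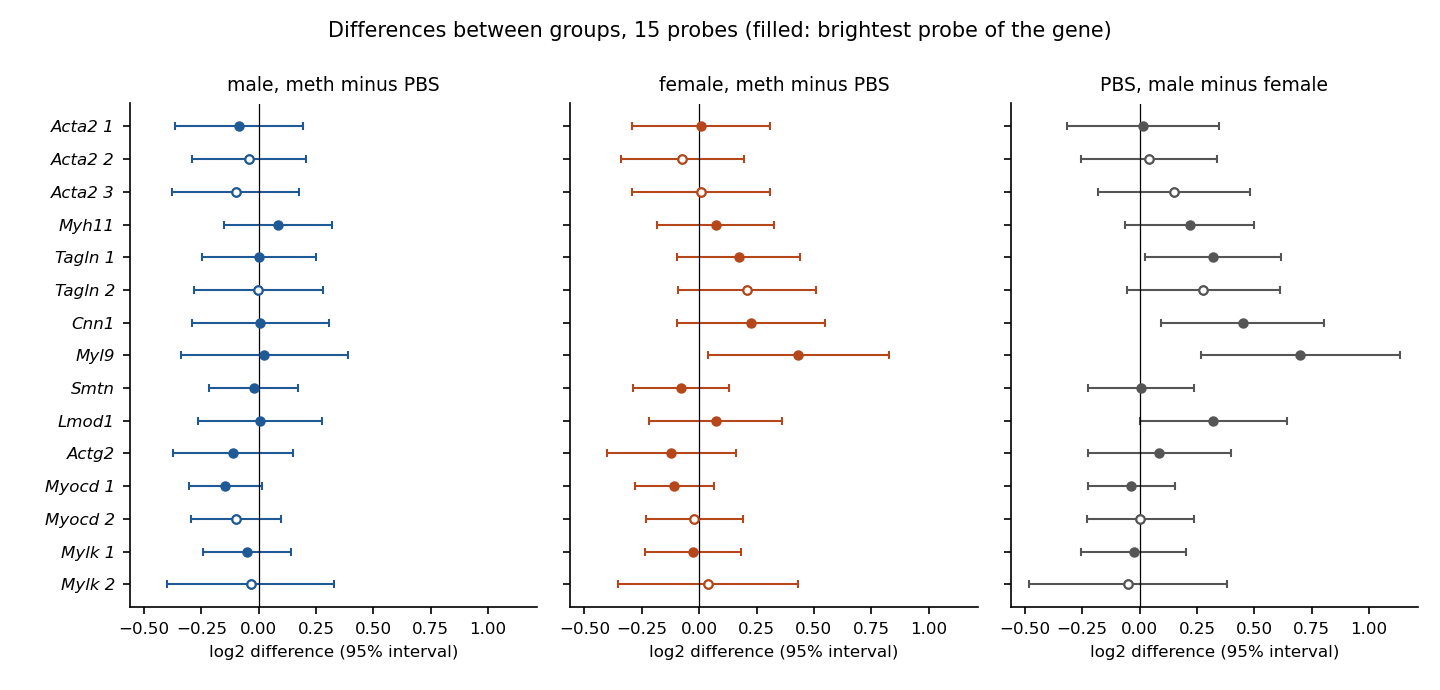
Log2 differences (x axis) of all 15 smooth muscle probes with 95% intervals from limma, for meth minus PBS in males, meth minus PBS in females, and male minus female PBS hearts. Filled points are the brightest probe of each gene. In males every interval spans 0, in females all but that of Myl9 (0.04 to 0.83), and among PBS hearts the intervals of Myl9, Cnn1 and the brighter Tagln probe lie above 0.

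The male means pooled 2 trials whose differences had opposite signs for most of these genes. In trial 1 male meth hearts were above PBS for 6 of 10 genes, with a median of 0.17 beside -0.0080 over all genes, and in trial 2 they were below PBS for 9 of 10, with a median of -0.17 beside -0.025. Cnn1 was 0.37 above PBS in trial 1 (SE 0.13, adjusted p = 0.498) and 0.36 below it in trial 2 (-0.36, SE 0.13, adjusted p = 0.350). For Myl9 the differences were 0.41 and -0.36 (SE 0.19 each), for Lmod1 0.27 and -0.26 (SE 0.15 each), and for Mylk 0.16 and -0.26 (SE 0.096 each). Single arrays weighed on these sizes without turning a sign. Myl9 in trial 2 was -0.11 without male meth trial 2 replicate 2 and -0.61 without male meth trial 2 replicate 1, and in trial 1 it was 0.20 without male PBS trial 1 replicate 2 and 0.62 without male PBS trial 1 replicate 1. Without male PBS trial 2 replicate 2, Cnn1 and Lmod1 in trial 2 were -0.22 and -0.17, and without male PBS trial 1 replicate 1, Mylk in trial 1 was 0.094.

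The less bright probes of Acta2 turned as well, and the brightest did not. The second read 4.35 and 4.39 with PBS and 4.66 and 4.58 with meth in trial 1, and 4.48 and 4.69 with PBS and 4.36 and 4.14 with meth in trial 2. The dimmest read -0.30 and -0.26, then 0.01 and -0.09, in trial 1, and -0.06 and 0.17, then -0.30 and -0.48, in trial 2. Both thus lay above PBS in trial 1, by 0.25 (SE 0.12) and 0.24 (SE 0.12), and below PBS in trial 2, by log2 differences of -0.33 (SE 0.12) and -0.44 (SE 0.12, adjusted p = 0.184). The brightest Acta2 probe gave -0.097 and -0.072 (SE 0.19 each). Myocd was below PBS in both trials, by -0.15 and -0.14 (SE 0.11 each), and Smtn turned the other way, from -0.11 to 0.073 (SE 0.13 each).

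None of these values passed within a trial. In trial 1, 0 of 15 probes passed against 0.300% of all probes, with 2 of 15 at an unadjusted p under 0.05 against 7.30%. In trial 2, 0 of 15 passed against 0.356%, with 4 of 15 at an unadjusted p under 0.05 against 10.6%. The difference between the trials, trial 2 minus trial 1, was called for 0 of 15 smooth muscle probes and for 0.00% of all probes, and 6 of 15 had an unadjusted p under 0.05 against 4.50% of all probes. Those 6 were the less bright Acta2 probes (-0.58, SE 0.16, and -0.68, SE 0.17), Cnn1 (-0.73, SE 0.19, adjusted p = 0.890), Myl9 (-0.77, SE 0.26), Lmod1 (-0.53, SE 0.21) and the brighter Mylk probe (-0.43, SE 0.14), and the lowest adjusted p among them was 0.871.

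Both meth arrays lay above both PBS arrays in trial 1 and below both in trial 2 for 7 of the 15 probes, against 3.09% of all probes. They belong to Acta2 (2 probes), Cnn1, Myl9, Lmod1 and Mylk (2 probes). Probes of 1 gene share a transcript, and by brightest probes the count was 4 of 10 genes. The 15 probes were read on the same 8 arrays, with 2 arrays of each treatment in a trial, and trial, slide and scan session cannot be told apart for the males.

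**Figure D3:**
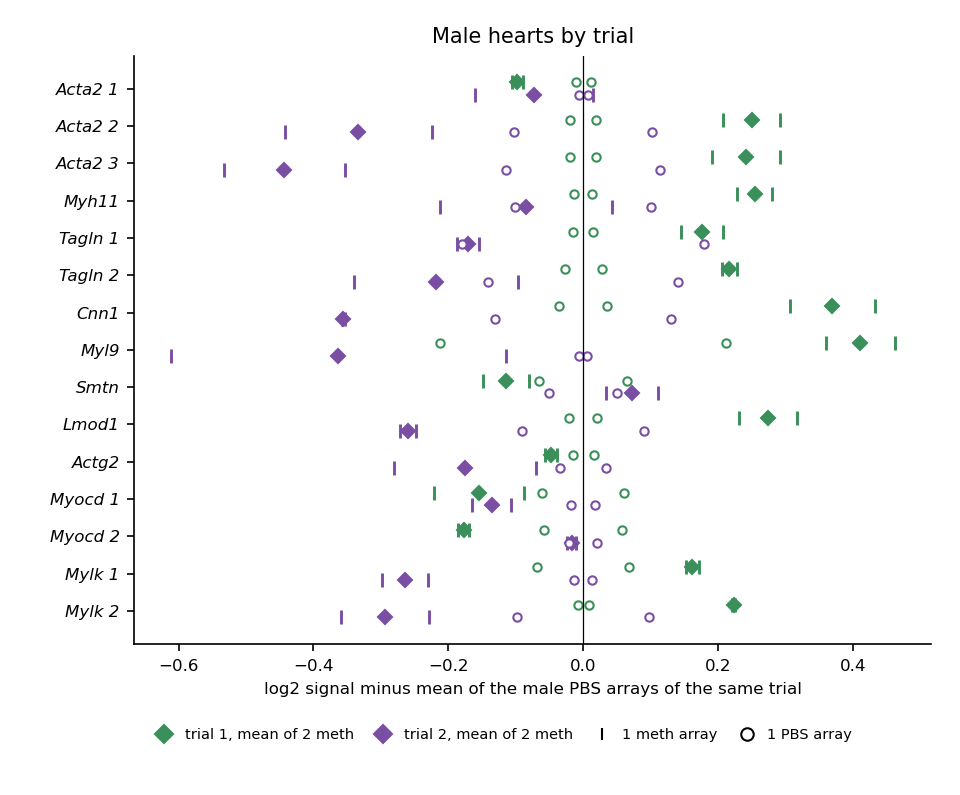
Signals on the 8 male arrays minus the mean of the male PBS arrays of the same trial, in log2 units on the x axis, for the 15 probes. Diamonds are the means of the 2 meth arrays, ticks the single meth arrays and circles the single PBS arrays, in green for trial 1 and purple for trial 2. For Cnn1 the trial 1 mean lies at 0.37 and the trial 2 mean at -0.36, while both means of the brighter Myocd probe lie below 0.

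Marker groups of other cells were read in the same hearts. Red blood cell genes were above PBS in trial 1 for 4 of 4 and below it in trial 2 for 4 of 4, with medians of 1.22 and -0.24. Their summed linear signal was 294 and 248 with PBS and 423 and 709 with meth in trial 1, and 260 and 299 with PBS and 225 and 284 with meth in trial 2. Atrial genes had medians of 0.60 and -0.025, with summed signals of 778 and 797 (PBS) and 1032 and 1253 (meth) in trial 1 and of 1078 and 957 (PBS) and 1008 and 1002 (meth) in trial 2. None of these 11 genes passed in either trial.

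Myofibroblast genes had a median of 0.099 in trial 1 and 0.91 in trial 2. In trial 2 their summed signal was 24.0 and 24.6 with PBS and 79.5 and 29.5 with meth, so that 1 meth array, male meth trial 2 replicate 1, stood far above the other 3. Fibroblast genes had medians of -0.082 and 0.15, and secretory airway genes of 8.91 and 7.67. Heart muscle genes had medians of -0.11 and -0.075. The 18 other contractile and dense-body genes of smooth muscle had medians of 0.079 and -0.023, and Tpm2, the beta-tropomyosin, read 0.22 and -0.22 (SE 0.12 each). The part of any of these groups in the trial values was not tested.

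The 15 probes fell into sets that varied together over the 15 arrays, given here as a description, since the points share groups, slides and trials. Cnn1 and Lmod1 correlated at r = 0.89, Tagln and Lmod1 at 0.82, Cnn1 and Myl9 at 0.80, and Tagln and Cnn1 at 0.76. After the means of group and trial were taken out, Tagln and Lmod1 still stood at 0.92, whereas Cnn1 and Myl9 fell to 0.09. The less bright Acta2 probes correlated at 0.84 with each other but at -0.24 and 0.05 with the brightest Acta2 probe, so that the probes of this gene disagree.

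The brightest Acta2 probe varied instead with Smtn (0.77), Actg2 (0.68) and the brighter Myocd probe (0.68), and with Acta1, the skeletal alpha-actin that heart muscle also makes (0.80). Acta1 correlated likewise with Actg2 (0.81), Smtn (0.79) and Myocd (0.76), and Actg2 with Actc1, the cardiac alpha-actin (0.69), which the brightest Acta2 probe followed less (0.26). Without the means of group and trial, the brightest Acta2 probe and Acta1 stood at 0.71 and Actg2 and Acta1 at 0.86, whereas with Actc1 the same probes stood at -0.43 and 0.31. Myh6, a heart muscle gene that is not an actin, varied with these probes too. Its dimmer and brighter probes gave 0.81 and 0.66 with Actg2, 0.71 and 0.39 with Smtn, and 0.58 and 0.32 with the brightest Acta2 probe. Without the means of group and trial these were 0.78 and 0.23, 0.84 and -0.03, and 0.53 and -0.35. Actin transcripts resemble each other, and whether the Acta2 and Actg2 probes also catch other actins was not tested. The values of the brightest Acta2 probe and of Actg2 are thus uncertain as measures of smooth muscle actin.

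**Figure D4:**
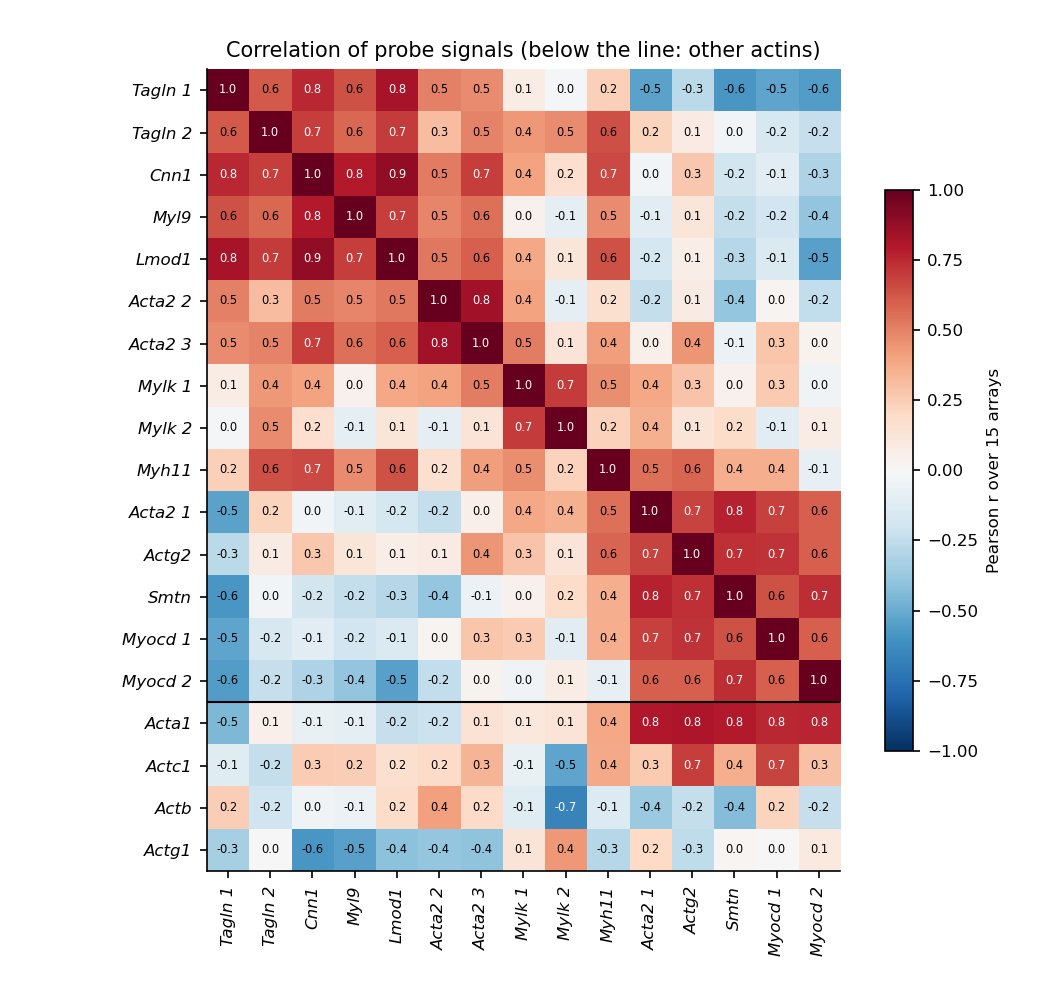
Pearson correlation over the 15 arrays between the smooth muscle probes, and below the line between them and the probes of 4 other actins, with the colour and the number giving r. Tagln, Cnn1, Myl9 and Lmod1 form a block, with r of 0.89 for Cnn1 and Lmod1, apart from the brightest Acta2 probe, Actg2, Smtn and Myocd, which also vary with Acta1.

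Beyond the 10 genes, those whose signal followed the mean of the smooth muscle probes most closely over the 15 arrays, among 12591 genes well above background on all of them, were Nectin2 (r = 0.86), Jph1 (0.86), Cacna1h (0.85), Apmap (0.84), Epb41l5 (0.83), Ubr4 (0.83), Atp1b1 (0.83), Arfgef2 (0.83), Msh3 (0.83) and Cdh22 (0.83). By deviations from the means of group and trial the order was another, led by Arfgap1 (0.91), Wdr81 (0.89) and Col20a1 (0.88). None of the 20 genes first in either order passed for meth in males or females. For the mean of Tagln, Cnn1, Myl9 and Lmod1, a set chosen after its correlations were seen, the closest were Tpm2 (0.87), Prdm6 (0.86), Trnp1 (0.80), Angptl4 (0.80) and Flna (0.77). Syne3 (0.77), Pon1 (0.77), Hp (0.77), Ffar2 (0.77) and Lrfn3 (0.76) came next. Of all these, only Tpm2 and Flna are in the lists of smooth muscle genes used here. Flna is filamin, which crosslinks actin, and Prdm6 is a repressor known in vascular smooth muscle.

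Other genes of the smooth muscle programme were counted in the same 5 comparisons of sex and treatment. Of 18 further contractile and dense-body genes, 0 passed in any comparison, and the male and female medians for meth were 0.0031 and 0.080. Tpm1, the alpha-tropomyosin, read -0.12 (SE 0.11) in males and -0.02 (SE 0.12) in females, and Myl6, an essential light chain of myosin, 0.02 (SE 0.10) and 0.07 (SE 0.11). These 18 genes were read in whole heart tissue. How much of their signal, that of Tpm1 included, came from heart muscle cells was not tested. Of 15 genes of myocardin and serum response factor control, 0 passed. Srf, the factor itself, gave -0.20 in males (SE 0.11, adjusted p = 0.472) and -0.07 in females (SE 0.12), and Klf4, known to repress contractile genes in modulating smooth muscle, gave -0.19 (SE 0.11) and 0.33 (SE 0.11, adjusted p = 0.259).

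Among 18 measured genes of contraction signalling, 1 fell with meth over both sexes, where 2.67% of all probes were called. It was Ppp1r14a, which encodes CPI-17, an inhibitor of the myosin phosphatase, at -0.27 (SE 0.06, adjusted p = 0.0457). The call was lost in 22 of 33 alternatives and on leaving out any 1 of 13 of the 15 arrays, all but male meth trial 1 replicate 1 and female meth replicate 1. Of the 18 genes, 14 were below 0 with meth in females (median -0.10 beside 0.026 over all genes). In males 11 of 18 were below 0 (median -0.022 beside -0.017). Adra1b, an alpha-1 adrenergic receptor, read -0.45 in males (SE 0.17, adjusted p = 0.285) and -0.33 in females (SE 0.18). Of 23 striated and non-muscle counterparts of the 10 genes, 1 was called over both sexes, against the same 2.67%. It was Smtnl2, a smoothelin-like gene, at 0.31 (SE 0.06, adjusted p = 0.0189), a call lost in 6 of 33 alternatives, including the one without female PBS replicate 1 (adjusted p = 0.0574).

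Of 10 genes known to rise in smooth muscle that leaves the contractile state, 10 of 10 were above 0 in males (median 0.44) and 9 of 10 in females (median 0.33), and 1 passed, over both sexes, against 2.67% of all probes. That gene was Vcam1, an adhesion molecule for leukocytes that endothelium also makes, at 0.50 (SE 0.11, adjusted p = 0.0338), and it was no longer called in 18 of 33 alternatives, 10 of which left out 1 array. The summed signal of this group was 64.2 to 81.0 in male meth, 54.4 to 63.3 in male PBS, 77.0 to 106 in female meth and 73.5 to 86.1 in female PBS hearts. Single arrays stood apart: the mean log2 signal of the group was 0.43 and 0.37 on female meth replicates 1 and 4, against -0.41 and -0.25 on replicates 2 and 3 and -0.48 to -0.34 with PBS, and 0.29 on male meth trial 2 replicate 1, against -0.52 to -0.32 on the other 3 male meth arrays and -0.75 to -0.54 with PBS. Female meth replicates 1 and 4 also read highest among female arrays for secretory airway (4.34 and 4.49), white fat (97.2 and 90.6) and red blood cell genes (434 and 584), by summed signal. Many of these genes are also made by fibroblasts and leukocytes, and their source was not tested.

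Of the cells that lie beside smooth muscle in the vessel wall, 0 of 10 pericyte genes passed in any comparison. Their summed signals were 58.3 to 63.7 in male meth, 60.0 to 62.7 in male PBS, 51.8 to 61.9 in female meth and 56.9 to 67.9 in female PBS hearts. In females 9 of 10 were below 0 with meth (median -0.11), and their mean log2 signal was at most 1.58 with meth and 1.62 to 1.75 with PBS, without overlap. Female array means did not overlap for the atrial, white fat and striated and non-muscle counterpart genes either, of which the atrial and counterpart lists share Myl4 and Myl7. For contraction signalling genes they all but touched, at 0.2498 at most with meth and 0.2499 at least with PBS. Of single probes, 9.11% did not overlap in females, and no such share was counted for means of lists. In males 6 of 10 pericyte genes were above 0 (median 0.040), and the difference between the sexes was above 0 for 10 of 10 (median 0.20). For 9 genes of the elastic artery wall the count was also 0. Among 10 endothelial genes Cldn5, a tight junction protein, fell in males (-0.43, SE 0.09, adjusted p = 0.0398) and over both sexes (-0.27, SE 0.06, adjusted p = 0.0446), calls lost in 22 of 36 and 22 of 33 alternatives, among them 11 and 12 of the 15 that left out 1 array. The share of all probes called was 1.10% and 2.67% in these comparisons, and the endothelial median in males was 0.036.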

How the data were processed

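RNA from heart tissue of 15 mice was labelled with Cy3 and hybridised to Agilent Mouse 4x44K arrays, 1 mouse to an array, and the authors extracted spot intensities with Feature Extraction, for which the submitters' processing notes give version 9.1. As deposited, spot intensities are background-subtracted, with no scaling from array to array. A second deposited table gives log2 values for these arrays and served as 1 alternative. Genespring and a paired t-test are named in the paper's methods, with neither the normalization nor the pairs of arrays.

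Control spots were left out, spots marked as outliers were set to missing, log2 signals of a probe's spots were averaged, and the 75th percentile of each array was subtracted. Of 41174 probes, 28358 were well above background on 3 or more of the 15 arrays and were tested. A gene is given by its brightest probe, other probes where they disagree, and genes of other lists where they passed or are among the brightest. Comparisons were fitted with limma 3.58.1 in R 4.3.3 on all 15 arrays, with 4 groups and the trial as a covariate, or with groups by trial for the male trials. P-values are two-sided, adjusted by Benjamini-Hochberg over all tested probes, with a threshold of 0.05. Replicates are separate mice, and precision is limited by how few arrays a group has.

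Replicate numbers were checked for pairing by the correlation of deviations of same-numbered arrays over 23808 probes. It was 0.30, 0.44 and 0.66 in females and -0.085 and 0.0099 in the male trials. Same-numbered arrays shared a slide in both sexes, and all male arrays of trial 2 lay on slide 3. The 36 alternatives concern background, scaling, filter, trial, slide, pairing, test and single arrays, and those on slides 1 and 2 alone and without slide 4 were chosen after seeing the data. The genes and lists were chosen with earlier results of these data known. The fit was tested on simulated data. Figures were made in Python 3.11.15 (matplotlib 3.10.9).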

Additional observations from a re-analysis of the deposited data

Results flagged for a closer look

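In 1 of 45 tests for a stray array (15 probes in the 3 groups of 4), 1 array stood apart from its group. Myl9 on male PBS trial 1 replicate 2 read 4.72 on the log2 scale, while the other 3 male PBS arrays read 5.08 to 5.14. The gap, as a share of the group's range, exceeded Dixon's 95% critical value, which chance exceeds in about 1 in 20 groups. Without this array the male meth minus PBS difference of Myl9 was -0.14 in place of 0.024, and that of trial 1 was 0.20 in place of 0.41. Neither passed.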

How the results depend on the processing

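Under 36 alternatives the 10 genes gave 2450 values, 0 of them called. Of these, 137 changed sign, and 23 both changed sign and moved by more than 1 SE.

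By scaling and background, Acta2 in females was -0.13 and the Myocd sex difference 0.12 with normexp, Actg2 among PBS hearts -0.070 with quantile normalization, and Myocd 0.087 and Mylk 0.097 among PBS hearts with the shift by the median. Myocd among PBS hearts was 0.12 without the trial term and 0.090 with the trial of the source names. With the mean of all probes, Acta2 was 0.13 in trial 1 and -0.41 between trials. With trial 1 arrays alone, Mylk was 0.16 in males and 0.067 over both sexes, and the sex differences were 0.0033 for Tagln, 0.14 for Cnn1, 0.20 for Lmod1 and 0.19 for Mylk. With slides 1 and 2 alone, Mylk was 0.16 in males, 0.051 over both sexes and 0.22 for the sex difference, Cnn1 0.015 for the sex difference, and Acta2 -0.14 in females, as without slide 4. With single arrays left out, Myh11 in females ran from -0.057, without female PBS replicate 1, to 0.17, and Tagln in trial 2 from -0.35 to 0.0089, without male PBS trial 2 replicate 2. The cause was not tested.

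Probes without overlap numbered 2 in females with quantile normalization, and 1 in males and 7 among PBS hearts with the shift by the median. That shift moved the median of all probes by 0.12 among PBS hearts and by -0.11 for the sex difference. The probes turning between the trials numbered 6 to 8. With the replicate block, 0 of the 10 genes passed in any of 4 comparisons, while all probes called numbered 167 in males, 109 in females, 573 over both sexes and 0 for the sex difference. Same-numbered meth and PBS arrays share a slide in females and in male trial 1, so that the block there is a paired fit by slide. All male arrays of trial 2 lay on slide 3, so that within that slide these pairs share only a number.

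The counts of all probes behind the stated shares varied: 313 in males (0 to 590 over the alternatives, 119 to 314 with single arrays left out), 218 in females (0 to 533, 38 to 200), 758 over both sexes (2 to 1339, 408 to 743), 39 for the sex difference (0 to 72, 28 to 48), 134 among PBS hearts (21 to 309, 42 to 155), 85 in trial 1 (14 to 186, 20 to 186), 101 in trial 2 (27 to 220, 29 to 220) and 0 between trials (0 to 60, 0 to 60). The methods' t-test called 0 probes when paired and 19 in males and 0 in females when unpaired.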
